A study of Mus musculus with 11 samples.

Results

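The MHC-linked odorant receptor (OR) genes are the OR genes that sit beside the class I genes of the major histocompatibility complex on mouse chromosome 17. They were taken as every symbol Olfr followed by a number, without a suffix, from Olfr90 to Olfr137 in the table of raw counts, and 45 of the 1125 OR symbols (4.0%) met this rule. Their expression was followed in RNA-seq of the main olfactory epithelium (MOE) from mice with a deletion of the olfactory Taar cluster, the genes of the trace amine-associated receptors Taar2 to Taar9. There were 3 wild type, 4 heterozygous and 4 homozygous libraries, all labelled C57BL/6 and P1-P2. The study's reporting summary gives another age and a mixed genetic background for this line, and which applies was not settled here. The deletion removes 1 of the enhancers near the Taar genes and keeps the other, and the labels name neither sex nor litter. No label says that the libraries came from separate animals, so the p-values measure the spread between these libraries only.

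An olfactory sensory neuron (OSN) expresses a single allele of a single OR gene. The choice depends on enhancers scattered over the genome, which Lhx2, Ebf factors and Ldb1 bind and which gather in the nucleus beside the chosen gene. The OR genes of the MHC region are class II receptors, and they have been studied because odours linked to MHC type influence the behaviour of mice. The comparison of genotypes asked whether the level of these receptors differed where the Taar genes were gone.

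Of the 45 symbols, 44 were placed by the GENCODE annotation of GRCm38, and Olfr100 was not. They formed 2 groups on chromosome 17, split where neighbouring members lay more than 100 kb apart. The first held 35 genes from Olfr90 to Olfr128 (chr17:37083871-37926801), and the second held 9 genes from Olfr129 to Olfr136 (chr17:38050857-38336643). A gap of 124 kb separated them, and 22 genes lay on each strand. Inside the same interval, Olfr138 and Olfr761 fell outside the rule and were not counted as members. They had 124 and 1 counts in total. Olfr761 (chr17:37952051-37953079) lies in the gap between the 2 groups, so the split holds among the members only, not among all OR genes there.

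Every one of the 44 placed genes had a coding sequence that began with ATG, and the coding length ran from 915 to 1158 bases. Over the 946 pairs of members, the median identity of the coding sequence was 55.7%, and 26 pairs were more than 90% identical. These pairs joined 25 members into 8 groups of close copies. For 18 members the closest copy was a neighbouring member along the chromosome, with genes outside the rule left out of the order. The closest pair was Olfr110 and Olfr111 (98.1%), followed by Olfr117 and Olfr130 (97.2%) and by Olfr101 and Olfr102 (96.6%), which differed at 31 of 924 bases. At the other end stood Olfr94, followed by Olfr96 (57.7%) and Olfr95 (59.6%), and the abundant Olfr131 (62.7%) and Olfr124 (63.3%) also had no close copy.

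The stretch of 150 coding bases with the most differences is shown for the pair Olfr101 and Olfr102 (bases 89 to 238), since the counts of such copies depend on how reads with several positions were treated, which is not given in the sources used here. Capitals mark the bases at which the pair differs, 11 in this stretch. The sequences were read from GENCODE coding exons (GRCm38), 5′ to 3′.
Olfr101: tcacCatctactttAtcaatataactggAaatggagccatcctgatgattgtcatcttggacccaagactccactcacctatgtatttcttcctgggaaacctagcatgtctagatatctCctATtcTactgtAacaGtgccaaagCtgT
Olfr102: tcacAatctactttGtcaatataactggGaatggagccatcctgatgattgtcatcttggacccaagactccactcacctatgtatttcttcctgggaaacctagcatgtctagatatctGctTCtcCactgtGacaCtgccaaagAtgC

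Reads covered 43 of the 45 members, and 38 had at least 1 count in each of the 11 libraries. Olfr100 and Olfr102 had 0 counts in every library. Such a count allows up to 3 counts per library, and 21 of the other 1080 OR symbols (1.94%) were also at 0. Olfr101, the close copy of Olfr102, had 18, 14 and 11 counts in the wild type libraries, 22, 14, 19 and 12 in the heterozygous and 18, 8, 23 and 18 in the homozygous libraries. So the 0 of Olfr102 stood beside a copy that was counted in all 11 libraries, although 85.8% of the 51-base stretches in the transcripts of Olfr102 occurred in no other OR gene. For Olfr101 this share was 88.7%. Olfr98 had the lowest share of the placed members, 61.4%, and 41 counts in total. The near-identical globin genes Hba-a1, Hba-a2, Hbb-bs and Hbb-bt were also at 0 throughout, and Alas2, another erythroid gene, had 101 to 217 counts. The part of the counting rules in these values was not tested. Olfr108 had 6 counts in total, 2 in heterozygous replicate 3, 2 in heterozygous replicate 4, and 1 each in homozygous replicates 1 and 3.

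The filter on low counts was passed by 32 of the 45 members (71.1%) and by 536 of the other 1080 OR symbols (49.6%). The median of the mean level over the 11 libraries was 0.812 CPM (counts scaled to a common effective library size) among the members and 0.603 CPM among the other OR genes. Per kb of annotated exon these medians were 0.30 and 0.21 CPM. 7 members were among the 100 OR symbols of highest mean level.

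The 10 members of highest level held 53.6% of the members' counts, and the first pair, Olfr131 and Olfr124, held 19.2%. Per kb of coding sequence, Olfr131 stood at 5.61 ± 1.59 CPM and Olfr124 at 5.49 ± 1.94 CPM (SD, n = 11 libraries), which did not differ beyond their spread. Next came Olfr99 (3.41 ± 1.14), Olfr96 (2.86 ± 0.492), Olfr115 (2.83 ± 0.960), Olfr116 (2.63 ± 0.822) and Olfr136 (2.48 ± 1.08). From Olfr99 on, each exceeded the next by less than its own SD. Olfr115 and Olfr116 overlap by annotated exons, and reads there cannot be assigned to one of them with certainty. Per kb of annotated exon the order was Olfr131 (2.93 CPM), Olfr99 (1.76), Olfr96 (1.24) and Olfr124 (1.11), so that the rank of Olfr124 turned on the annotated length. The study's own annotation is not given in the sources used here, and the RefSeq models of 37 members span less than 1200 bases, which is little more than the coding sequence.

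**Figure D1:**
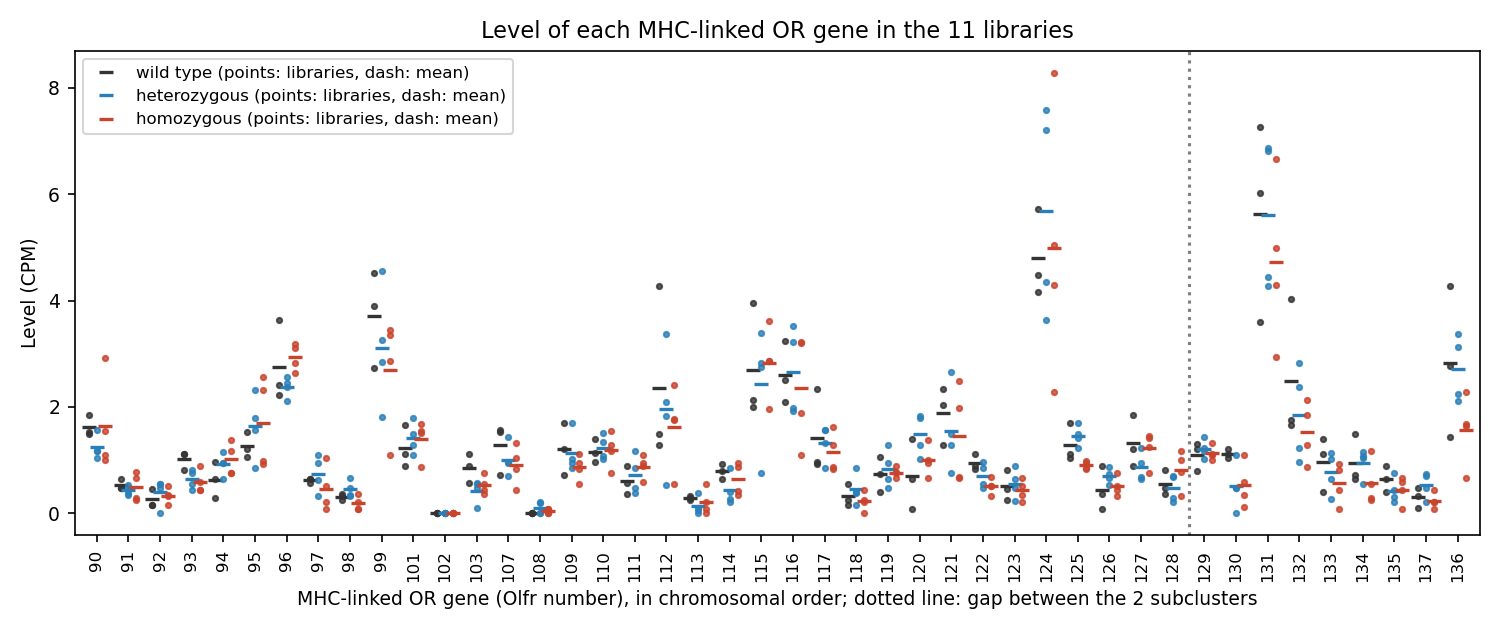
Level (CPM, vertical axis) of the 44 placed MHC-linked OR genes in chromosomal order, with 1 point per library and a dash for the mean of each genotype. The means of Olfr124 and Olfr131 stand above the rest in every genotype, with overlapping points, and Olfr102 is at 0.

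Olfr131 had 6.02, 3.60 and 7.26 CPM in the wild type libraries, 6.86, 6.82, 4.45 and 4.28 in the heterozygous and 4.29, 2.94, 6.67 and 4.99 in the homozygous libraries. The lowest value was that of homozygous replicate 2, and the 3 genotypes overlapped. Olfr124 had 4.17, 4.49 and 5.73 CPM in the wild type, 4.35, 7.21, 7.58 and 3.64 in the heterozygous and 5.04, 2.29, 8.28 and 4.30 in the homozygous libraries. Here the homozygous libraries held both the lowest and the highest value. Olfr96 was among the steadiest of the abundant members, with 2.12 to 3.63 CPM over all 11 libraries. Its homozygous libraries (2.64 to 3.18 CPM) lay inside the wild type range.

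Members with close copies had a lower median level, a difference that was not tested. The 25 members whose closest copy was more than 90% identical had a median of 0.80 CPM per kb of coding sequence, against 1.26 for the 19 with a more distant closest copy, and 3 of the 10 most abundant members belonged to the former. Across the 44 placed genes, Spearman's rho between the identity to the closest member and this level was -0.24, and with the share of 51-base stretches found in no other OR gene it was 0.31. The genes share libraries and are not independent, so these values are a description.

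**Figure D2:**
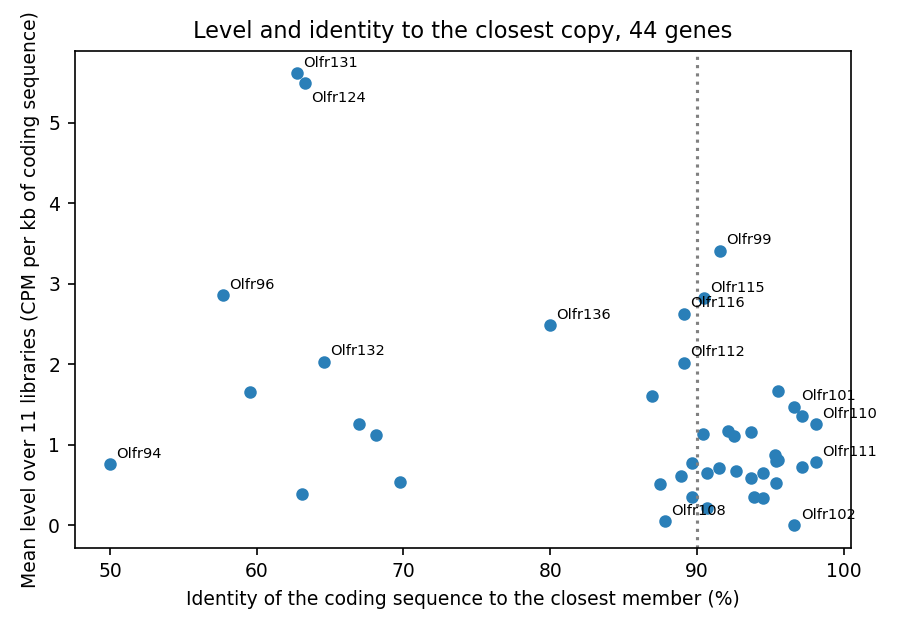
Mean level over the 11 libraries (CPM per kb of coding sequence, vertical axis) against the identity of the coding sequence to the closest member (%, horizontal axis), with 1 point per placed gene and a dotted line at 90%. Olfr131 and Olfr124, the most abundant members, lie at 62.7% and 63.3%, and Olfr102, at 0 CPM, lies at 96.6%.

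Because reads can be divided arbitrarily among close copies, the copies were also summed. The group of 6 genes Olfr118 to Olfr122 and Olfr129 had, per 1000 counts of the other OR genes, 4.78 ± 1.05 counts in the wild type libraries (SD, n = 3), 5.96 ± 1.65 in those of heterozygotes (SD, n = 4) and 5.22 ± 1.03 in those of homozygotes (SD, n = 4). For Olfr97, Olfr98, Olfr99 and Olfr107 these values were 4.98 ± 0.755, 4.91 ± 0.721 and 4.24 ± 1.27. The pair Olfr110 and Olfr111 had 1.5 ± 0.0680, 1.84 ± 0.384 and 2.15 ± 0.257. The group Olfr126, Olfr127 and Olfr128 had 1.93 ± 0.491, 1.89 ± 0.189 and 2.64 ± 0.0684. These groups were not tested.

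As a check of the labels, the 14 Taar2 to Taar9 symbols in the table had 87 to 119 counts in wild type, 31 to 96 in heterozygous and 1 to 3 in homozygous libraries. Library totals ran from 9239866 to 14632525 counts. The libraries fell into 2 sets on the first principal component (41.6% of the variance), which crossed the genotypes: wild type replicates 1 and 2, heterozygous 3 and 4 and homozygous 1 and 2 formed set 1, and the other 5 libraries set 2. These sets were read from the data, and no label gives a batch. Rn45s, a ribosomal RNA precursor, took 25.8% of the counts of homozygous replicate 2 and less than 1% elsewhere. The 5 markers of mature OSNs summed to 976 to 1820 CPM, and all 5 were detected. The 4 sustentacular markers summed to 845 to 1705 CPM and the 4 immature OSN markers to 738 to 1025 CPM, with overlapping genotypes, while the 5 skeletal muscle markers ranged from 2.87 to 1285 CPM between libraries, and the part of these differences in the members' levels was not tested. Fewer OSNs and less RNA per OSN cannot be told apart in whole tissue.

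The summed members took a similar share of OR expression in every genotype, with a coefficient of variation of 8.67% over the 11 libraries. Wild type libraries had 637, 571 and 884 member counts, heterozygous libraries 885, 814, 629 and 389, and homozygous libraries 586, 317, 860 and 654. Per 1000 counts of the other OR genes this gave 49.3, 43.4 and 55.6 in wild type, 55.8, 52.4, 52.5 and 48.4 in heterozygous and 50.3, 45.2, 57.0 and 54.8 in homozygous libraries. The genotypes overlapped, with means of 49.4 ± 6.10 (SD, n = 3), 52.3 ± 3.02 (SD, n = 4) and 51.8 ± 5.19 (SD, n = 4). As a share of all OR counts the members stood between 4.16% (95% Wilson interval 3.84 to 4.51, counting error only) in wild type replicate 2 and 5.39% (5.05 to 5.75) in homozygous replicate 3.

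Homozygous libraries were higher than wild type by 2.41 counts per 1000 (two-sided exact permutation test, p = 0.514, adjusted p = 0.771 over 3 comparisons). Heterozygous libraries were higher than wild type by 2.88 (exact permutation p = 0.457, adjusted p = 0.771), and homozygous minus heterozygous was -0.47 (exact permutation p = 0.914). With these group sizes the smallest possible p is 0.0571 against wild type and 0.0286 between the knockout genotypes. Without wild type replicate 2, the library with the lowest share, homozygous minus wild type was -0.61 and heterozygous minus wild type -0.13, so the direction between group means rested on that library. Between libraries of the same number, homozygous minus wild type was 1.06, 1.85 and 1.36 per 1000 (replicates 1, 2 and 3), higher in 3 of 3 pairs, with an exact sign-flip permutation p of 0.25, the smallest that 3 pairs allow. Each of these pairs lies within 1 library set. The library sets differed in this share: set 1 ranged from 43.4 to 52.5 with a mean of 48.2 (6 libraries) and set 2 from 52.4 to 57.0 with a mean of 55.1 (5 libraries). Within set 1 the means were 46.3 in wild type, 50.5 in heterozygous and 47.8 in homozygous (2 libraries each). Within set 2 they were 55.6 (1 library), 54.1 and 55.9 (2 libraries each). Markers of other cells also separated the sets: the 5 basal cell markers summed to 124 to 192 CPM in set 1 and 71.1 to 111 CPM in set 2, and the 3 markers of respiratory ciliated cells to 386 to 579 and 242 to 335 CPM. Their part in the members' share was not tested.

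**Figure D3:**
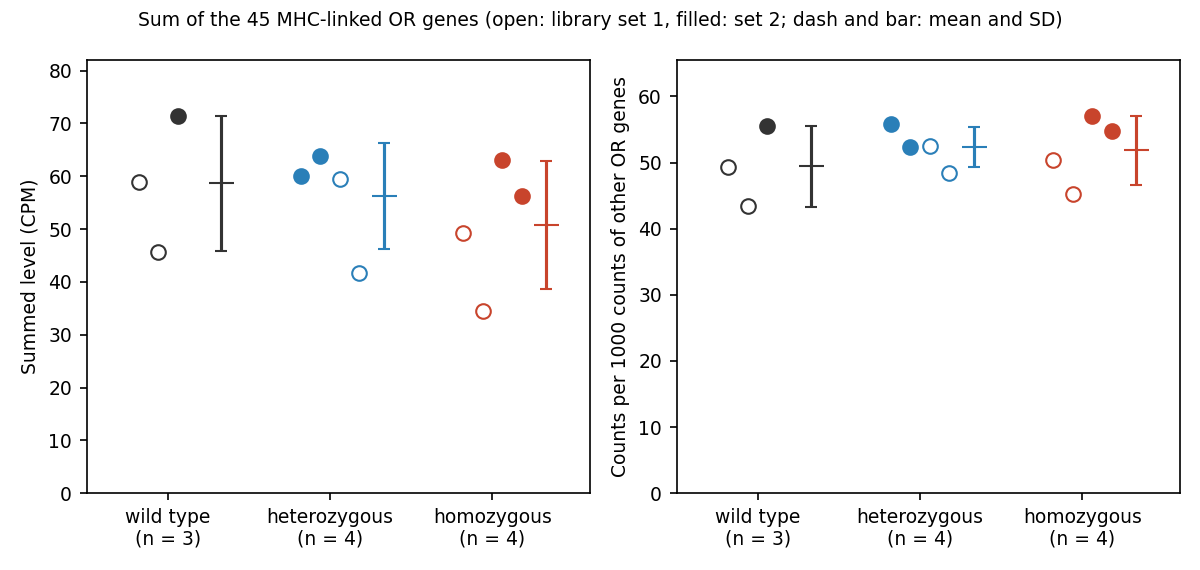
Summed level of the 45 MHC-linked OR genes in each library, in CPM (left) and per 1000 counts of the other OR genes (right), with the mean and SD of each genotype beside the points and library set 1 open, set 2 filled. Both panels start at 0, the genotypes overlap in both, and on the right the set 2 libraries (52.4 to 57.0) lie at or above nearly all set 1 libraries (43.4 to 52.5).

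Against all genes rather than OR genes, the members summed to 59.0, 45.7 and 71.3 CPM in wild type, 60.1, 63.8, 59.6 and 41.6 in heterozygous and 49.3, 34.5, 63.0 and 56.2 in homozygous libraries. Homozygous replicate 2 was lowest and wild type replicate 3 highest. Homozygous minus wild type was -7.91 CPM between means (exact permutation p = 0.514, adjusted p = 0.771). Within the 3 same-numbered pairs it was -9.72, -11.2 and -8.27 CPM. In edgeR's quasi-likelihood fit the sum had a log2 fold change of -0.21 (SE 0.22, 95% interval -0.70 to 0.28, unadjusted p = 0.372) for homozygous against wild type, -0.06 (SE 0.22, unadjusted p = 0.796) for heterozygous against wild type and -0.15 (SE 0.21, unadjusted p = 0.490) for homozygous against heterozygous. With the other OR genes as the library size these became 0.07 (95% interval -0.32 to 0.45), 0.08 (-0.30 to 0.47) and -0.01 (-0.37 to 0.34). The other OR genes summed to 1178 ± 115 CPM in wild type (SD, n = 3) and 969 ± 147 CPM in homozygous libraries (SD, n = 4, exact permutation p = 0.114, adjusted p = 0.343). With the replicate number as a block and wild type and homozygous libraries alone, an alternative added after the data were seen, edgeR gave -0.30 (SE 0.12, unadjusted p = 0.0354). The same block over all 3 genotypes gave -0.17 (unadjusted p = 0.492). With the library set as a factor instead, edgeR gave -0.28 (SE 0.16, unadjusted p = 0.0983). In that fit heterozygous against wild type had -0.12 (SE 0.16) and homozygous against heterozygous -0.16 (SE 0.14). In the fit without the block, where the value was -0.21, it was -0.04 without wild type replicate 3 and -0.07 without homozygous replicate 2.

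The members were compared with the OR genes of other chromosomes. Against the 62 OR symbols of chromosome 19, which took 4.52% to 5.84% of OR counts, the ratio of member counts was 0.913 in wild type, 1.01 in heterozygous and 0.993 in homozygous libraries. Against the 289 of chromosome 2 it was 0.223, 0.245 and 0.264, and against the 135 of chromosome 9 it was 0.586, 0.660 and 0.715. The lowest of the 9 exact permutation p-values was 0.0571 (adjusted p = 0.514), for heterozygous against wild type with chromosome 19. That value is the smallest that 3 against 4 libraries allow, so the comparisons with wild type could not pass 0.05 with this number of libraries.

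Gene by gene, 0 of the 32 tested members passed an adjusted p of 0.05 in edgeR for any of the 3 comparisons, and 0% of all 16574 genes tested did. DESeq2 also called 0 members, and over all 21601 genes it fitted it called 8 (0.037%), 3 (0.0139%) and 2 (0.00926%). With the replicate block and wild type and homozygous libraries alone, edgeR called 39 of 16163 genes at an adjusted p of 0.05, and 0 members. The same kind of fit called 8 of 16272 genes for heterozygous against wild type and 0 of 16032 for homozygous against heterozygous. With the other OR genes as the library size, 1 of 16568 genes was called for homozygous against wild type. In these fits too 0 members were called. At an unadjusted p under 0.05, 1 member differed between homozygous and wild type (3.02% of all genes tested did), 0 between heterozygous and wild type (2.24%) and 1 between homozygous and heterozygous (0.561%). These counts rest on a single member each.

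In homozygous against wild type, 19 of the 32 tested members were lower and 13 higher, with a median log2 fold change of -0.26. The median was 0.02 over all genes tested and -0.29 over the 536 other OR genes tested, of which 403 were lower. For heterozygous against wild type 18 were lower and the median was -0.09 (-0.13 for the other OR genes), and for homozygous against heterozygous 22 were lower and the median was -0.14 (-0.15). Thus the members' medians lay near those of the other OR genes in each comparison, and with the other OR genes as the library size the first of them was 0.02. Wild type replicate 3 bore on these values, since without it the medians were -0.07, 0.16 and -0.14. These comparisons share libraries.

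**Figure D4:**
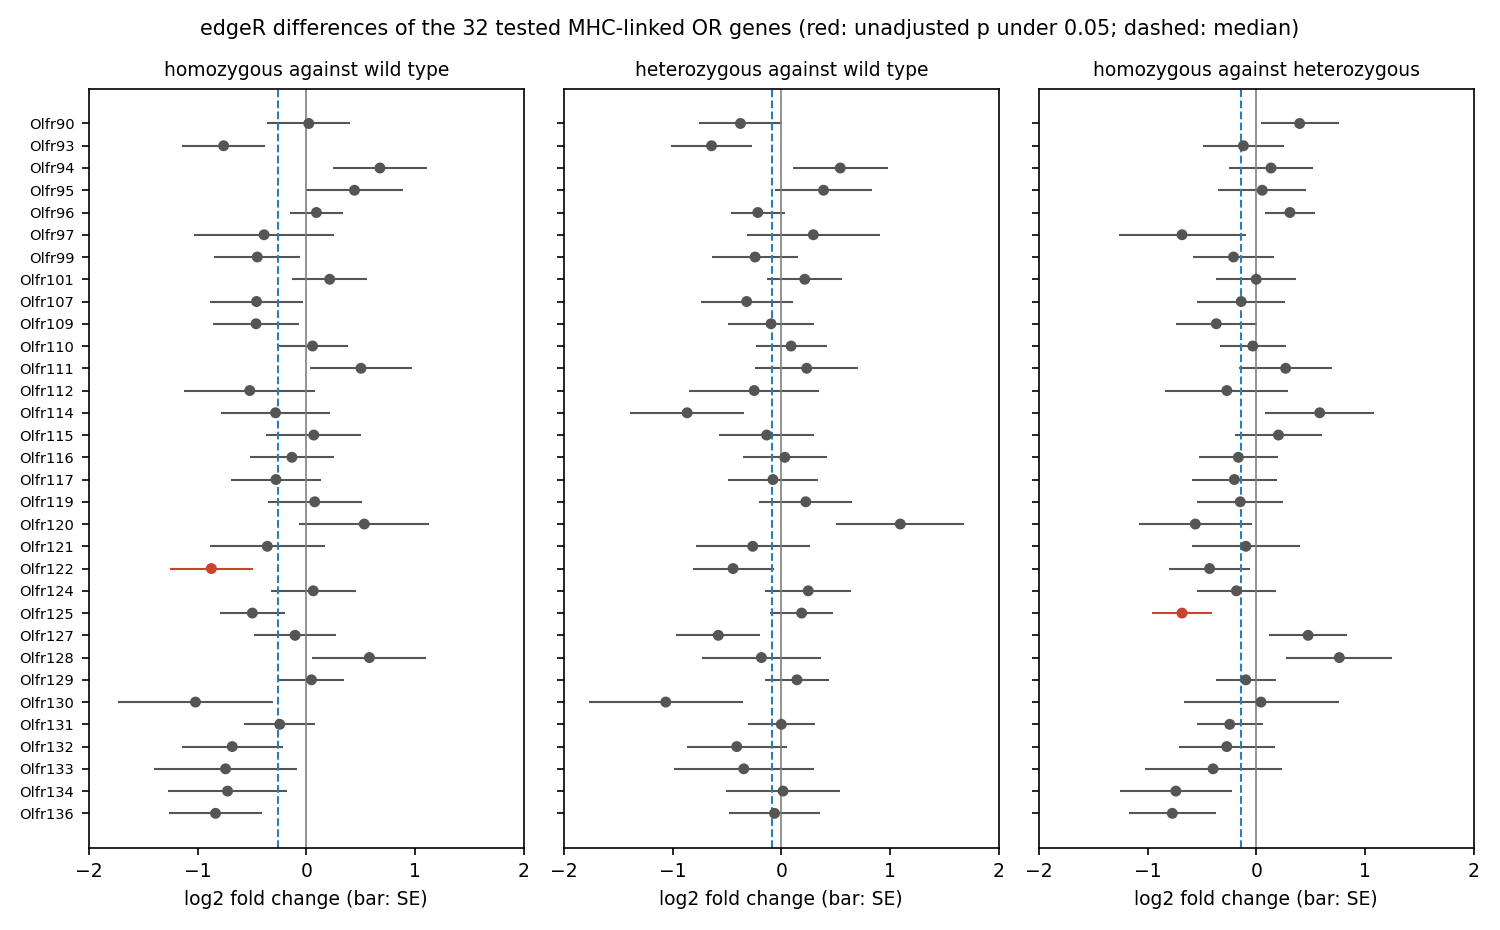
Log2 fold change (edgeR, horizontal axis, bar for the SE) of each of the 32 tested members in chromosomal order for the 3 comparisons, with the median as a dashed line and genes at an unadjusted p under 0.05 in red. The medians are -0.26, -0.09 and -0.14, and only Olfr122 in the first panel and Olfr125 in the third are red.

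Olfr122, which belongs to the group of 6 close copies, had 0.833, 1.12 and 0.887 CPM in wild type, 0.475, 0.549, 0.852 and 0.962 in heterozygous and 0.504, 0.327, 0.513 and 0.688 in homozygous libraries, from 3 to 14 counts. The homozygous libraries all lay below the wild type ones and overlapped the heterozygous ones. The log2 fold change was -0.87 (SE 0.38, unadjusted p = 0.0416, adjusted p = 0.996 by edgeR). The fold ranged from -1.04 to -0.73 when 1 library was left out. It missed an unadjusted p of 0.05 in DESeq2 (unadjusted p = 0.103), with the library set as a factor (unadjusted p = 0.0538), with the replicate block and these genotypes alone (unadjusted p = 0.0516, log2 fold change -1.05, against unadjusted p = 0.0339 with the block over all 3 genotypes) and when any wild type library or homozygous replicate 1, 2 or 3 was left out (p from 0.0561 to 0.133).

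Olfr125, whose closest copy is 67.0% identical, had 1.11, 1.04 and 1.69 CPM in wild type, 1.70, 1.41, 1.23 and 1.5 in heterozygous and 0.841, 0.981, 0.953 and 0.860 in homozygous libraries. The 4 homozygous libraries were the lowest of the 11 and overlapped neither other genotype. For homozygous against heterozygous the log2 fold change was -0.68 (SE 0.28, unadjusted p = 0.0297, adjusted p = 1 by edgeR), and for homozygous against wild type it was -0.50 (SE 0.30, unadjusted p = 0.123). With the other OR genes as the library size the former was -0.55 (unadjusted p = 0.127), and DESeq2 gave an unadjusted p = 0.0735.

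Olfr136, the last gene of the second group, had 2.78, 1.44 and 4.27 CPM in wild type, 2.11, 3.37, 3.12 and 2.25 in heterozygous and 1.68, 0.654, 2.27 and 1.63 in homozygous libraries. Homozygous replicate 2 was lowest, and the homozygous and wild type ranges overlapped. Its log2 fold change for homozygous against wild type was -0.83 (SE 0.43, unadjusted p = 0.0755, adjusted p = 0.996 by edgeR). It ran from -1.15 (without wild type replicate 2, unadjusted p = 0.0199) to -0.40 (without wild type replicate 3, unadjusted p = 0.395) when 1 library was left out. With the library set as a factor its unadjusted p was 0.0344, and in the block fit of these genotypes alone it was 0.0176.

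Among the other abundant members, homozygous against wild type gave log2 fold changes of -0.24 (SE 0.33) for Olfr131, 0.06 (SE 0.39) for Olfr124, -0.45 (SE 0.40) for Olfr99, 0.09 (SE 0.25) for Olfr96, 0.07 (SE 0.44) for Olfr115 and -0.13 (SE 0.39) for Olfr116. Olfr112, Olfr132 and Olfr121 had -0.52 (SE 0.60), -0.68 (SE 0.47) and -0.36 (SE 0.53). Their unadjusted p-values in edgeR ran from 0.170 to 0.876. Olfr112 and Olfr132 were highest in wild type replicate 3, with 4.27 and 4.03 CPM, against 1.28 to 1.76 CPM in the other wild type libraries. Without that library Olfr112 turned to 0.25, Olfr132 went to -0.14 and Olfr131 to -0.016.

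At the ends of the first group, Olfr90 had 1.01 to 2.92 CPM and Olfr128 had 0.214 to 1.17 CPM over the 11 libraries, and their log2 fold changes in homozygous against wild type were 0.02 (SE 0.38) and 0.58 (SE 0.52). Olfr129, the first gene of the second group, had 0.05 (SE 0.30). The 9 genes of the second group held 27.1% ± 1.5 of the members' counts in the wild type libraries (SD, n = 3), 25.9% ± 1.85 in those of heterozygotes (SD, n = 4) and 22.3% ± 3.18 in those of homozygotes (SD, n = 4), and the homozygous range (18.2% to 25.8%) met the wild type range (25.4% to 28.1%). In homozygous against wild type 403 of the 536 tested other OR genes were lower. Among the members these were 6 of the 7 tested genes of the second group and 13 of the 25 of the first. This split was noticed in the values and was not tested.

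Within genotypes, relative to the other OR counts, the variance was a median of 1.67 times that of a Poisson count over the 32 tested members and 1.81 times over the tested other OR genes. It was below 1 for 10 members, and above 2 for 13 members (40.6%) and for 229 other OR genes (42.7%). Olfr112 (5.28), Olfr124 (4.63) and Olfr121 (4.01) varied most, and Olfr110 (0.288) least. In CPM, 25 of the 32 tested members (78.1%) and 342 of the 536 tested other OR genes (63.8%) had a higher mean in library set 2. Relative to the other OR counts these were 21 members (65.6%) and 264 other OR genes (49.3%). The part of the sets in the spread was not tested. Olfr131 stood at 6.52 CPM in set 2 and 4.26 CPM in set 1, while the close copies Olfr133 and Olfr134 stood at 0.517 and 0.596 CPM in set 2 and 0.941 and 0.992 CPM in set 1. The sets were drawn from the same libraries, so this is a description.

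Genes around the members and genes of the OSN were taken as a frame for these values. The 10 genes of odour transduction and receptor transport (such as Gnal, the olfactory G protein, Cnga2, a channel subunit, and Rtp1, which carries ORs to the membrane) included 0 genes at an unadjusted p under 0.05 in any comparison, and neither did the 7 genes of OR transcription (Lhx2, Ldb1, Ebf1 to Ebf4 and Emx2). In homozygous against wild type 9 of the 10 were lower, with a median log2 fold change of -0.32, and Omp had -0.31 (SE 0.24). Without wild type replicate 3, which had the lowest Omp of the wild type libraries (348 against 599 and 736 CPM), 8 of the 10 had an unadjusted p under 0.05 in edgeR (lowest 0.00198 for Cngb1, adjusted p = 0.783), against 4.25% of all genes in that fit. In heterozygous against wild type Rtp2, Ano2, Cnga4 and Cngb1 did so too, against 3.66% of all genes. The part of OSN number in the members' CPM was not tested, and the value relative to the other OR genes is given above. Of the 20 other genes inside the interval or within 250 kb of it, 11 were tested, with 0 at an unadjusted p under 0.05 in any comparison over all libraries. Without wild type replicate 3, Zfp57, a zinc finger gene, had a log2 fold change of 1.08 for heterozygous against wild type (unadjusted p = 0.047, adjusted p = 0.872 by edgeR), against 0.26 (unadjusted p = 0.620) with it. Among them are the class I genes H2-M3, at 1.37 ± 0.165 CPM in wild type (SD, n = 3) and 1.63 ± 0.466 CPM in homozygous libraries (SD, n = 4, log2 fold change 0.26, SE 0.31), and H2-M5, at 1.10 ± 1.01 and 1.36 ± 0.924 CPM (0.31, SE 0.82).

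RefSeq gave a window of 250 bases before to 50 bases after its start for 35 members. For only 4 of these did the RefSeq start lie within 100 bases of the start in GENCODE, since the RefSeq models of most members begin at the coding sequence. Ebf factors bind sites that hold CCCNNGGG, and Lhx2 sites hold TAATTA (N is any base, both strands searched, and the motifs cannot overlap each other). CCCNNGGG was in 5 of the 35 windows (14.3%), against 2.64% of the windows of 909 other OR genes and 15.4% of 27025 windows of all genes. TAATTA was in 4 of 35 (11.4%), against 18.9% and 6.12%. The 5 were those of Olfr93, Olfr96, Olfr98, Olfr99 and Olfr108, so that CCCNNGGG was found beside the abundant Olfr96 and Olfr99 and beside the nearly silent Olfr108. Olfr98, Olfr99 and Olfr108 hold the same CCCTAGGG within a stretch that they share. In Olfr93 and Olfr96 the motif lies after the RefSeq start. The 5 are therefore not independent upstream sites, and the difference from the other OR genes was not tested.

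The windows of Olfr108 and Olfr122 are shown, whose RefSeq starts lie 0 and 35 bases from those in GENCODE. Olfr108 (chr17:37445230-37445529, plus strand) holds CCCNNGGG, in capitals, and had 6 counts in all, and Olfr122 (chr17:37768392-37768691, plus strand) holds neither motif and had 90 counts. Both are from RefSeq, build GRCm38.p6, 5′ to 3′.
Olfr108: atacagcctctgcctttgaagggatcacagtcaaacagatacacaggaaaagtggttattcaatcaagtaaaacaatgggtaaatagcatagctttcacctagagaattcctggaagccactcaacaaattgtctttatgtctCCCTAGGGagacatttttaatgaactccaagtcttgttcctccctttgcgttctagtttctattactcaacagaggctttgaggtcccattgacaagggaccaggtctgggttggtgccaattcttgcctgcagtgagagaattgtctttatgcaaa
Olfr122: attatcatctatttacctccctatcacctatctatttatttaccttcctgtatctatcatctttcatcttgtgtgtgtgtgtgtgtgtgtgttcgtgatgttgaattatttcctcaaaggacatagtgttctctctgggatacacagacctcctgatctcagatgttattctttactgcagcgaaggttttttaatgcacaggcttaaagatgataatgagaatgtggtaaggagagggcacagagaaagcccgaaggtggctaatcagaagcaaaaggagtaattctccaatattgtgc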

How the data were processed

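Per the labels, 11 polyA-selected directional libraries were made from RNA of the whole MOE. The authors aligned trimmed reads to mm10 (Trimmomatic 0.36, HISAT2 2.1.0) and deposited raw counts per gene (featureCounts of Subread 1.6.2), besides a normalised signal, in which each library was scaled by its own size factor, and they name DESeq2 1.20.0. Annotation, strand setting and treatment of reads with several positions are not given in the sources used here. The raw table holds 24421 entries, among them 2 repeated symbols, and 0 columns of no sample. The normalised signal served for 1 alternative.

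The members and lists were chosen with earlier results of these data known. Counts were tested with edgeR 4.0.16 in R 4.3.3 (limma 3.58.1), with TMM scaling, filterByExpr by genotype and quasi-likelihood F-tests, with the 3 genotypes fitted together, and p-values were adjusted over all 16574 genes tested (Benjamini-Hochberg). Sums were compared by exact two-sided permutation tests (SciPy 1.17.1), adjusted over 3 comparisons. DESeq2 1.42.0, RLE scaling, other library sizes, no filter, blocks and leaving out each library were alternatives. Named members were the 10 of highest mean CPM, those with an unadjusted p under 0.05, those at the ends of the 2 groups, those at 0 and close pairs. The edgeR script was tested on simulated counts.

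Same-numbered wild type and homozygous libraries deviated together (r = 0.33, 0.42 and 0.40). They were treated as pairs in the sign-flip tests and block fits, although no label says what the number marks. These pairs each lie within 1 library set, and differently numbered libraries of the same set also correlated (r = 0.36, 0.24 and 0.47), so number and set cannot be told apart. In the other comparisons the same-numbered libraries lie in different sets, and their correlations were below 0 (-0.19 to -0.58). Coding sequences were taken from GENCODE M21 and aligned with Biopython 1.88. Counting error alone is covered by the Wilson intervals and the floors, as the reads carried no molecular identifiers.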

Additional observations from a re-analysis of the deposited data

How the results depend on the processing

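Each of the 3 comparisons had 0 members past the adjusted threshold under every alternative run. The members' sum relative to other OR genes kept its direction under another OR denominator, without the most abundant member and with the replicate block (1.42 counts per 1000, exact sign-flip permutation p = 0.25, the smallest that 3 pairs allow, for homozygous against wild type). In the normalised table this ratio cannot change, since each library was divided by 1 size factor. Leaving out 1 library each time gave -0.61 to 5.50, -0.13 to 5.97 and -2.18 to 1.72 in the 3 comparisons (homozygous and heterozygous with wild type, then homozygous with heterozygous). The corresponding ranges were -14.3 to -1.58, -8.85 to 3.89 and -11.3 to -0.31 for the sum in CPM, and -0.36 to -0.04, -0.21 to 0.11 and -0.29 to -0.01 for its edgeR log2 fold change.

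With the other OR genes as the library size, the edgeR log2 fold change of the sum turned to 0.0693 for homozygous and 0.0819 for heterozygous against wild type, that of Olfr131 to 0.0292 and that of Olfr116 to 0.116. This scaling moves the median of all genes by 0.30, 0.15 and 0.15 in the 3 comparisons. With the replicate block the heterozygous sum turned to 0.00194, and with the block and the 2 genotypes alone to 0.0782, while the homozygous sum became -0.30 (edgeR, unadjusted p = 0.0354). The block changed no other call of a sum.

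The number of members at an unadjusted p under 0.05, 1, 0 and 1 as reported, was 2 and 2 (homozygous against wild type and against heterozygous) with the library set as a factor (where 6.83% and 1.37% of all genes passed), 0 and 0 with DESeq2 (2.93% and 0.556%), 1 for heterozygous against wild type and 0 for homozygous against heterozygous with the OR library size (2.47% and 0.682%), and 0 for the latter with either replicate block (0.259%, and 0.112% with the 2 genotypes alone). With the OR library size 1 member stood against 9.96% of all genes for homozygous against wild type. Leaving out 1 library gave 0 to 1, 0 to 1 and 0 to 2, against 1.92% to 4.36%, 1.36% to 3.66% and 0.321% to 1.09% of all genes. Olfr124 and Olfr115 turned to -0.0168 and -0.00688 with the library set as a factor, and Olfr115 to -0.0726 in the block fit of the 2 genotypes. With 1 library left out the log2 fold changes in homozygous against wild type ran from -0.30 to 0.29 for Olfr124, -0.0364 to 0.344 for Olfr96, -0.11 to 0.45 for Olfr115, -0.324 to 0.0836 for Olfr116, -0.48 to -0.016 for Olfr131, -0.90 to -0.14 for Olfr132, -0.63 to -0.21 for Olfr99, -0.73 to -0.12 for Olfr121 and -0.82 to 0.25 for Olfr112. The causes were not tested.

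Members at low counts limit what can be seen: the median SE of a member's log2 fold change was 0.43 against wild type for homozygous libraries.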
